A study of Bos taurus with 16 samples.

Results

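The transcripts described here were those of 19 bovine genes that were at or near zero in oocytes and early cleavage embryos, were present in every embryo from the 8-cell stage, and stayed present to the blastocyst. They were selected on their measured values. A locus was taken when its name did not start with CUFF, its normalised value was at most 5 in all 6 libraries of the oocyte, 2-cell and 4-cell stages, and its value was at least 50 in all 10 libraries of the 5 later stages. Of 27393 loci, 24820 had such a name, 15872 of these stayed at or below 5 in the 6 early samples, 837 reached 50 in all 10 later samples, and 19 met both limits. The study profiled single in vivo matured oocytes and single in vivo developed Bos taurus embryos by RNA-Seq on the SOLiD platform, with 2 samples at each of 8 stages and 16 in all. The stages were the metaphase II oocyte (MII), the 2-cell (2C), 4-cell (4C), 8-cell (8C) and 16-cell (16C) embryo, the early morula (EM), the compact morula (CM) and the blastocyst (BL). No group carried a treatment or a genetic change, and the RNA of each oocyte or embryo was amplified in 2 rounds before sequencing. Each value is a read count divided by a size factor of its library. It is not divided by gene length, so values are compared between samples of 1 gene and not between genes.

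Before its own genome becomes active, the mammalian embryo lives on mRNA and protein that the oocyte stored, and this store is degraded while the first cleavages proceed. In cattle the major wave of embryonic genome activation (EGA) falls around the 8-cell stage. The embryo then compacts, its outer cells form an epithelium called the trophectoderm, and a fluid-filled cavity marks the blastocyst. The 19 genes cover several parts of cell biology. The products of TFAP2C, KDM5B, MSL1 and JRK act in the nucleus, and LOC504861 carries no descriptive name. RPL10A and CAPRIN1 act in translation, and PDHB, SLC25A3, MTHFD1L and DHRS11 in mitochondria and metabolism. SLC30A2, ATP6V1D, STARD7 and MANF belong to vesicles, lipid transport and the endoplasmic reticulum, and JUP, LRFN4, NOS3 and SGK1 to adhesion and signalling.

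Between 607672 and 3379426 reads per library were recovered from the values. A single read was worth 0.365 to 1.06 in the early samples and 0.391 to 1.80 in the later ones, so the upper bound of 5 allowed 4 to 13 reads and the lower bound of 50 asked for 28 to 128. A value of 0 in an early sample allows up to 3 reads, or 1.09 to 3.19 on the normalised scale, which covers counting error only. The labels were checked against markers. The summed value of 19 oocyte genes was 46589 to 535127 in the early samples, with a median of 163 in the later ones, and the second 8C embryo stood apart at 6484. Trophectoderm markers summed to 45.9 to 1906 in the later samples, highest in the second BL embryo, and CDX2, a defining gene of that lineage, had 1 read in all, in the first 8C embryo. Sperm markers summed to 10.8 or less, markers of blood and immune cells to 3.32 to 38.8 over all samples, and those of oviduct and uterine epithelium to 7.31 to 355. CCDC78 carried the last sum in the later samples (up to 354), where OVGP1 and SPP1 were at most at 2.29 and 1.62. In the early samples OVGP1 and SPP1 reached 89.4 and 90.4, while CCDC78 was at most at 3.69. Markers of cumulus and granulosa cells summed to 1264 to 2636 in the early and 441 to 1152 in the later samples, with STAR holding most of the reads. HAS2 came next with 2301 reads, reaching 367 in the early and 21.8 in the later samples. CYP19A1 and FSHR reached 32.3 and 22.3 in the early samples, and LHCGR and HSD3B1 reached 69.7 and 58.6 in the later ones. FOXL2, AMH, INHA, IHH and NR5A1 were listed at 0 throughout. Genes that most cells use, such as RPL7, RPLP2 and CANX, were also listed at 0 in all samples, and 9075 loci had no read, so a gene listed at 0 is not shown to be absent. No source used here says whether embryos of a stage came from separate females, so p-values measure only the spread between these samples. In whole embryos, fewer cells with a transcript and less of it per cell cannot be told apart.

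Together the 19 genes had 209 reads in the 6 early libraries and 44718 in the 10 later ones. As CPM, reads scaled to a common library total, their sum was 6.14 to 24.0 in early samples (17.1 ± 7.59, SD, n = 6) and 2564 to 8215 in later ones (4298 ± 1937, SD, n = 10). This gap follows from the selection and was not tested. Early reads were few but not missing. In each early sample between 8 and 14 of the 19 genes had at least 1 read, and in each later sample all 19 had. KDM5B and RPL10A had reads in all 6 early samples, with 20 reads each, whereas LOC504861 had 1 read in 1 sample and MTHFD1L and TFAP2C had 2 reads each. DHRS11 had the most, 21 reads. Values at the limits were as follows. The highest early values among the 19 were those of LRFN4 (4.87), CAPRIN1 (4.75) and RPL10A (4.75), and GPD1L, RBM47 and GM2A stayed just outside with 5.53, 5.54 and 5.54. The lowest later values were those of NOS3 (50.4), STARD7 (50.7) and ATP6V1D (53.9), and ZNF131, LOC528262 and FOLR1 stayed just outside with 48.6, 48.5 and 48.5.

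**Figure D1:**
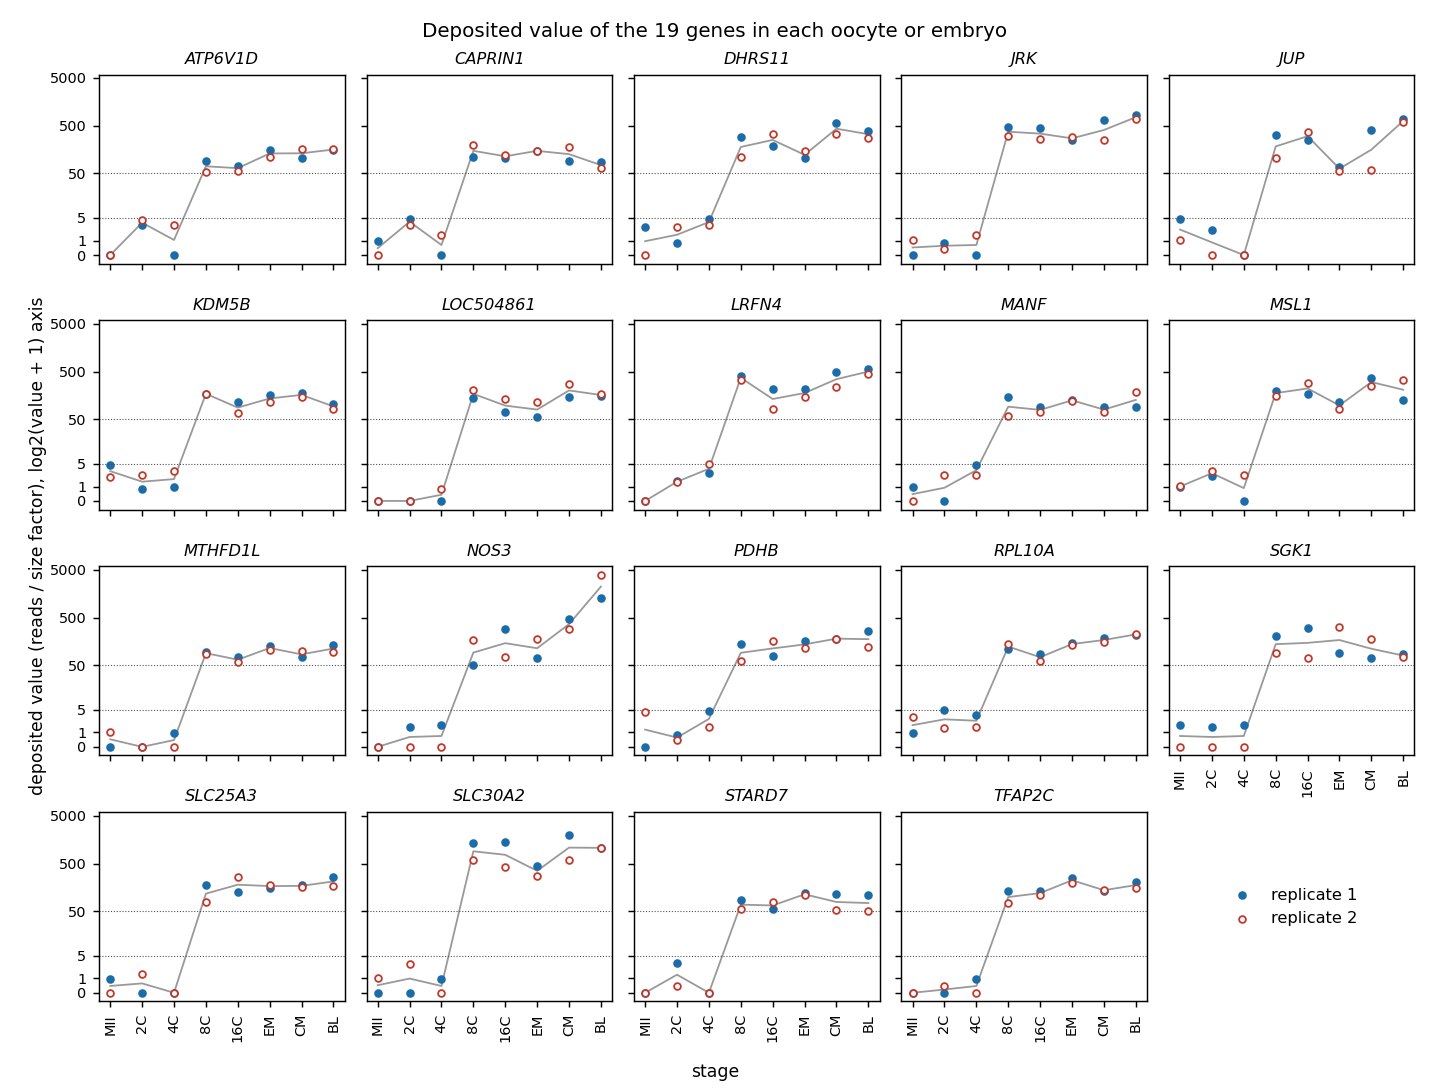
Normalised value of each of the 19 genes (read count divided by a size factor, on a log2(value + 1) axis) in the 2 samples of each of 8 stages, with filled and open points for replicates 1 and 2, a line through their mean on this axis, and dotted lines at 5 and 50. All points up to 4C lie at or below 5 and all points from 8C at or above 50, and NOS3 reaches 1271 and 3901 in the BL embryos.

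TFAP2C encodes AP-2 gamma, a transcription factor of the trophectoderm and placenta. Its values were 133 and 73.4 at 8C, 131 and 110.0 at 16C, 251 and 199 at EM, 135 and 141 at CM and 205 and 152 at BL, after 0 to 0.922 in the early samples. Both EM embryos and both BL embryos were above both 8C embryos, and the EM values of 251 and 199 were among its highest. A relative that reached the filter on low counts in 1 period only could differ in 1 direction only. Such a relative is given in the text by its values with no test. The counts of relatives below, and the colours of such relatives where they are plotted, are descriptions. Another gene of the same family ran the other way. TFAP2B fell from 270.3 ± 218 to 5.16 ± 14.3 (mean ± SD, 6 early and 10 later samples; limma, log2 difference -6.41, SE 0.80, adjusted p 5.04e-07). TFAP2A, which is also a trophectoderm gene, had 4 early and 78 later reads with a highest later value of 50.7, and TFAP2D had 62 early and 0 later reads. Both had too few reads for the test.

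KDM5B encodes a demethylase that removes methyl groups from lysine 4 of histone H3. In the early samples it ranged from 0.791 to 4.62. The later values were 171 and 174 at 8C, 116 and 66.3 at 16C, 165 and 114 at EM, 177 and 150.1 at CM and 108 and 80.8 at BL. The 8C embryos were nearly equal and above both 16C and both BL embryos, and the CM embryos overlapped with 8C. Its relative KDM5A rose from 16.5 ± 7.95 to 31.2 ± 8.21 (limma, log2 difference 1.00, SE 0.38, adjusted p 0.0241). KDM5C, which reached the filter in later samples only, was at 1.33 ± 1.69 in early and 12.3 ± 12.3 in later samples. Neither of them met the limits, since KDM5A had up to 23.1 in an early sample and never passed 43.2 later.

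MSL1 is the scaffold of the complex in which KAT8 acetylates lysine 16 of histone H4. Its later values were 199.98 and 158 at 8C, 174 and 285 at 16C, 117 and 81.7 at EM, 375 and 247 at CM and 128 and 342 at BL and its lowest stage mean was that of EM. Within the same complex KAT8, which reached the filter in later samples only, was at 4.23 ± 2.53 in early and 42.3 ± 59.2 in later samples. MSL2 went from 8.18 ± 12.2 to 36.9 ± 56.1 and did not pass the test (limma, log2 difference 1.85, SE 0.87, adjusted p 0.0638), nor did MSL3 (limma, log2 difference -0.45, SE 0.42, adjusted p 0.354). The name MSL1 is also that of a second locus with 77 early and 94 later reads. With both loci summed, the highest early value was 14.2, so MSL1 as a gene would lie outside the limit of 5.

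JRK encodes a DNA-binding nuclear protein with a domain like that of transposases. It had 5 early and 4304 later reads, and its values were 472 and 299 at 8C, 454 and 259 at 16C, 252 and 295 at EM, 669 and 249 at CM and 832 and 688 at BL. Both BL embryos and the first CM embryo stood above the other samples. For LOC504861, a protein-coding gene that RefSeq lists by number only, values were 142 and 206 at 8C, 71.8 and 131 at 16C, 56.4 and 113 at EM, 145 and 282 at CM and 151 and 174 at BL. Its neighbours in RefSeq are ZNF331 and DPRX. It had the fewest early reads of the group, and no stage separated fully from all the others.

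RPL10A, a protein of the large ribosomal subunit, was the only cytosolic ribosomal protein among the 19 genes. Its values were 109.9 and 139 at 8C, 88.2 and 61.5 at 16C, 145 and 134 at EM, 184 and 157 at CM and 217 and 228 at BL, after 0.923 to 4.75 in early samples. Both BL embryos were above all others, and both 16C embryos below all others. Of 83 other cytosolic ribosomal protein genes, 77 had enough reads to be tested, and 72 were higher and 2 lower in the later samples (limma, adjusted p up to 0.05), beside 36.9% of all 6910 tested loci that were higher and 29.9% that were lower. Ribosomal protein genes have many near-identical copies, and how reads with several matches were counted is not given in the sources used here, so these values are uncertain. Of the 77, 11 reached the filter in later samples only.

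CAPRIN1 encodes an RNA-binding protein that acts with G3BP proteins in the control of translation. Its early values were 0 to 4.75 and its later values 112 and 199.6 at 8C, 107 and 122.9 at 16C, 151 and 147 at EM, 90.9 and 177 at CM and 88.3 and 63.4 at BL. Its stage mean was highest at 8C (156 ± 62.1, SD, n = 2) and lowest at BL (75.8). CAPRIN2, which reached the filter in early samples only, was at 61.0 ± 25.5 in early and 2.04 ± 3.05 in later samples. Its G3BP partners divided. G3BP1 rose from 15.2 ± 6.75 to 87.5 ± 29.3 (limma, log2 difference 2.48, SE 0.35, adjusted p 3.1e-06), while G3BP2 fell from 205 ± 69.2 to 42.0 ± 14.7 (limma, log2 difference -2.28, SE 0.33, adjusted p 3.23e-06).

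Among the metabolic genes, PDHB encodes a subunit of pyruvate dehydrogenase, which turns pyruvate into acetyl-CoA in mitochondria. Values were 137 and 60.8 at 8C, 79.5 and 160.1 at 16C, 165 and 114 at EM, 182 and 181 at CM and 263 and 119 at BL. Only the second 8C embryo and the first 16C embryo were under 100. The partner subunit did not share the pattern. PDHA1 fell from 343 ± 194 to 110.3 ± 38.2 (limma, log2 difference -1.54, SE 0.36, adjusted p 0.000752). Of 10 other genes of the complex and its regulators 7 were tested. DLD rose (limma, log2 difference 2.01, SE 0.34, adjusted p 2.92e-05). PDHA1, the kinases PDK1 and PDK3 and the phosphatase PDP1 fell, and DLAT and PDHX did not pass the test. In the wider list of glycolysis and glucose uptake genes, which also names PDHB, 12 of 15 other tested genes were higher and 2 lower. Over all tested loci 36.9% were higher and 29.9% lower.

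SLC25A3 carries phosphate into mitochondria for the synthesis of ATP. Its values ran from 78.0 to 259 over the later samples, against 0 to 1.46 before, and only the second 8C embryo was under 100. Of 41 other mitochondrial carriers of this family 18 were tested, with 5 higher and 7 lower. Of the 18, 3 reached the filter in later samples only. These were SLC25A35, SLC25A37 and SLC25A39, and they were among the 5 higher. Carriers of ADP and ATP were found on both sides. SLC25A31, over the filter in early samples only, was at 23.2 ± 5.41 in early and 0.1499 ± 0.358 in later samples, and SLC25A4 rose from 9.34 ± 7.71 to 21.2 ± 12.5 (limma, log2 difference 1.32, SE 0.48, adjusted p 0.0193). Across all solute carriers, the list that holds both SLC25A3 and SLC30A2, 40 of 98 other tested genes were higher and 24 lower. This stands beside 36.9% higher and 29.9% lower over all tested loci.

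MTHFD1L makes formate in mitochondria for one-carbon metabolism. It had the smallest spread of the 19 genes. Later values were 93.7 and 86.0 at 8C, 72.9 and 58.2 at 16C, 125 and 106 at EM, 73.1 and 97.6 at CM and 131 and 96.7 at BL, so that the highest was 2.25 times the lowest. MTHFD1, its cytosolic relative, fell from 82.8 ± 38.9 to 9.13 ± 11.3 (limma, log2 difference -3.69, SE 0.65, adjusted p 3.98e-05). Of the other genes of this pathway compared here, MTHFD2, SHMT1 and TYMS did not pass the test.

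DHRS11 belongs to the short-chain dehydrogenases and acts on steroids. Its later values were 290.1 and 111 at 8C, 192 and 333 at 16C, 104 and 146 at EM, 559 and 338 at CM and 391.6 and 284 at BL. The EM embryos, the second 8C embryo and the first 16C embryo were under 200, and both CM embryos were above both EM embryos. A second locus of the same name had 5 early and 397 later reads, and adding it raised the highest early value to 6.46. DHRS11 as a gene would thus also lie outside the limit of 5.

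SLC30A2, a zinc transporter of vesicle membranes, took the most reads of the 19 genes, 8214 later against 10 early. Its values were 1344 and 607 at 8C, 1385 and 419 at 16C, 451 and 275 at EM, 1955 and 593 at CM and 1070.3 and 1062 at BL, after 0 to 2.92 before 8C. The first embryo was above the second at 8C, 16C, EM and CM, by more than 3-fold at 16C and CM, and the 2 BL embryos were nearly equal. The second locus with this name had 0 early and 234 later reads. Other zinc exporters lay on both sides. SLC30A5 rose from 12.6 ± 1.99 to 39.5 ± 17.9 (limma, log2 difference 1.46, SE 0.36, adjusted p 0.00136), while SLC30A4 fell from 22.9 ± 9.66 to 3.93 ± 8.85 (limma, log2 difference -3.29, SE 0.64, adjusted p 0.000132) and SLC30A9 from 139 ± 41.9 to 15.8 ± 14.9 (limma, log2 difference -3.63, SE 0.62, adjusted p 2.77e-05).

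ATP6V1D is a subunit of the vacuolar proton pump, which acidifies lysosomes and other vesicles. Its values were 91.9 and 53.9 at 8C, 72.9 and 56.6 at 16C, 158 and 109 at EM, 106 and 165 at CM and 156 and 162 at BL. All 4 embryos at 8C and 16C were under 100, and all 6 from EM to BL were above 100. Of 22 other genes of the pump 16 were tested, and 11 were higher, 1 was lower and 4 were not called. Of the 16, 4 reached the filter in later samples only. ATP6V0D2, which is 1 of these, had 2 early reads and a later value of 119 ± 56.4. ATP6V1E1 rose from 3.87 ± 4.45 to 91.4 ± 27.6 (limma, log2 difference 4.77, SE 0.50, adjusted p 5.03e-08), and ATP6V1C1 was the gene that fell, from 181 ± 77.6 to 50.1 ± 18.7 (limma, log2 difference -1.82, SE 0.32, adjusted p 4.41e-05). ATP6V0D2 entered the group of genes that meet both limits when the second 8C embryo was left out.

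STARD7, a carrier of phosphatidylcholine to mitochondria, had values of 84.7 and 55.1 at 8C, 55.5 and 77.6 at 16C, 119.8 and 107 at EM, 113 and 53.5 at CM and 108 and 50.7 at BL. It was near the limit of 50 in several samples and had the fewest later reads of the group, 919. Of the other lipid carriers with the same domain, STARD9 rose from 9.97 ± 7.42 to 76.2 ± 27.8 (limma, log2 difference 3.11, SE 0.44, adjusted p 2.97e-06), and STAR, the cholesterol carrier of steroid-making cells, fell from 1698 ± 489 to 685 ± 193 (limma, log2 difference -1.30, SE 0.31, adjusted p 0.00101). MANF is a protein of the endoplasmic reticulum that cells make under stress of protein folding. It ranged from 57.3 to 184, with the second 8C embryo lowest and the second BL embryo highest. CDNF, its relative, went from 21.5 ± 12.3 to 21.0 ± 15.0 and did not pass the test (limma, log2 difference -0.21, SE 0.53, adjusted p 0.743). In the list of CDNF and chaperones of the endoplasmic reticulum, 9 genes were tested, 5 were higher and 2 lower. DNAJB9, 1 of the 5, reached the filter in later samples only. HSPA5 rose from 5.13 ± 5.597 to 67.9 ± 55.2 (limma, log2 difference 3.79, SE 0.60, adjusted p 1.07e-05), and HSP90B1 fell from 212 ± 99.7 to 75.8 ± 51.1 (limma, log2 difference -1.68, SE 0.50, adjusted p 0.00556).

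JUP encodes plakoglobin, which links cadherins to the cytoskeleton at desmosomes and adherens junctions. Its values were 326 and 104 at 8C, 250.4 and 365 at 16C, 69.6 and 56.7 at EM, 412 and 60.05 at CM and 678 and 586 at BL, after 0 to 4.62 in the early samples. Both EM embryos and the second CM embryo were under 70, a range no 8C, 16C or BL embryo entered. Its close relative CTNNB1, beta-catenin, was present from the oocyte on, going from 120.3 ± 22.9 to 85.1 ± 38.8, and did not pass the test (limma, log2 difference -0.67, SE 0.39, adjusted p 0.135). Of 10 other desmosomal genes 2 had enough reads, in both cases in later samples only. DSG2 was at 0.466 ± 0.517 in early and 80.2 ± 67.7 in later samples, and PKP2 at 2.09 ± 2.45 in early and 39.9 ± 22.4 in later samples. DSC2 had 0 early and 284 later reads, and PKP1 and PKP3 were listed at 0. In the whole list of cell junction genes, 10 of 24 other tested genes were higher and 8 lower, beside 36.9% and 29.9% of all tested loci.

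LRFN4 encodes a membrane adhesion protein known from synapses. Its values were 414 and 335 at 8C, 217 and 82.5 at 16C, 218 and 147 at EM, 503 and 242 at CM and 564 and 450.0 at BL. The first 8C embryo, the first CM embryo and both BL embryos were above 400, and the second 16C embryo was lowest. LRFN2 and LRFN3 were listed at 0 in all samples, and LRFN5 had 5 early and 0 later reads. PC, which overlaps LRFN4 in RefSeq, was at 3.23 to 27.0 in the later samples. SGK1 encodes a kinase induced by serum and glucocorticoids. It had values of 209 and 91.8 at 8C, 306 and 71.2 at 16C, 92.0 and 311 at EM, 69.8 and 176 at CM and 87.2 and 72.9 at BL, and the embryos of 1 stage differed by more than 2-fold at 8C, 16C, EM and CM. SGK2 was listed at 0, and SGK3 had 5 early and 37 later reads.

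NOS3, the endothelial form of nitric oxide synthase, was the only 1 of the 19 genes with an effect of stage called by limma over all 10 later samples. It had 4 early reads, with values of 0 to 1.84. Its later values were 50.4 and 167 at 8C, 291 and 72.8 at 16C, 71.9 and 179.9 at EM, 459 and 291 at CM and 1271 and 3901 at BL. Both BL embryos were above all other samples, both CM embryos were above every 8C and EM embryo, and the second CM embryo was nearly equal to the first 16C embryo. Values at 8C, 16C and EM overlapped. With values scaled by total reads or by TMM, NOS3 does not meet the limits of the selection. Across the 5 later stages the adjusted p was 0.0372 (limma, F test over 10 samples), and 258 of 7665 tested loci, or 3.37%, passed the same test. The call was lost without the second 16C embryo (adjusted p 0.0616), either EM embryo (0.0909 and 0.0696), either CM embryo (0.0594 and 0.0626) or either BL embryo (0.161 and 0.282). It was also lost with a pseudocount of 0.5 in place of 1 (0.0507) and with no filter on low counts (0.0727). JUP was called for stage by DESeq2 (adjusted p 0.0281), and by limma without the first 8C embryo (0.0475) or the first CM embryo (0.0447), beside 0.122 with all 10 samples and up to 0.371 over 18 alternatives. For NOS3, BL minus CM was 2.60 (95% interval 0.80 to 4.41) on the log2 scale, with an adjusted p of 0.114 (limma). Markers of trophectoderm were also highest at BL, as NOS3 and JUP were, summing to 1896 and 1906 over 15 genes in the BL embryos (10 and 11 genes with reads, CDX2 listed at 0) and to 45.9 to 548 in the other later samples, and their part in these values was not tested. NOS1 and NOS2 had too few reads for the test. NOS2 had 35 early and 4 later reads, with highest values of 10.3 in the early and 3.23 in the later samples. ATG9B, an autophagy gene that overlaps NOS3 in RefSeq, also had its highest values in BL. It was at 1.80 and 4.59 at 8C, 19.9 and 28.1 at CM and 49.7 and 82.4 at BL. The sources used here do not say whether counting used the strand, so reads of the shared stretch cannot be told apart.

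Whether a gene was already at its later level at 8C was asked with 1 linear model per locus over the 10 later samples, a measure the selection used only through its lower bound of 50. The mean of 16C, EM, CM and BL minus 8C was between -0.56 (KDM5B) and 1.88 (NOS3) on the log2 scale, and 13 of 19 differences were above 0. None of the 19 passed (limma, Benjamini-Hochberg adjustment, lowest adjusted p 0.156 for NOS3), while 56 of 7665 tested loci did, or 0.731%. At an unadjusted p under 0.05, NOS3 alone stood out, and edgeR and DESeq2 also called none. The median difference was 0.13 for the 19 genes and 0.10 for all tested loci. It rested on the 8C embryos, being 0.46 without the first and -0.07 without the second. Differences above 0 numbered 15 of 19 without the first and 7 of 19 without the second.

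**Figure D2:**
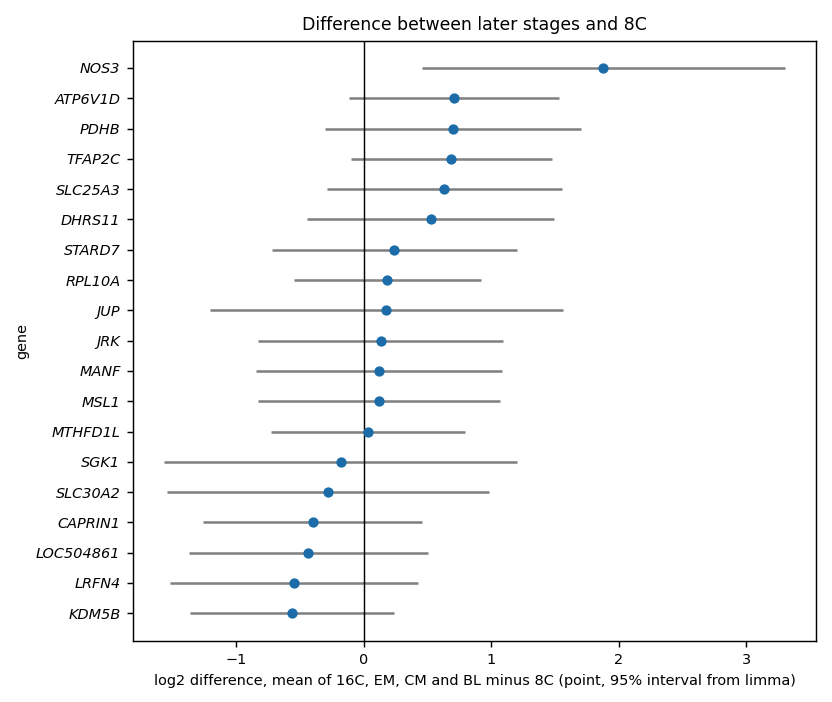
Log2 difference of the mean of 16C, EM, CM and BL minus 8C for each gene (point) with its 95% interval from limma (line). The interval of NOS3 lies above 0 and the other 18 include 0.

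The precision of these differences was limited. The interval reached 0.73 to 1.43 to each side, with a median of 0.96, and only 2 of 19 intervals, those of MTHFD1L and RPL10A, lay within 1 log2 unit of 0. For MTHFD1L the difference was 0.03 (95% interval -0.73 to 0.80), and for RPL10A it was 0.18 (95% interval -0.55 to 0.92). For SGK1 it was -0.18 (95% interval -1.56 to 1.20), so that a rise or a fall of 2-fold could not be told from no difference. TFAP2C was at 0.69 (95% interval -0.10 to 1.47), ATP6V1D at 0.71 (95% interval -0.12 to 1.53) and KDM5B at -0.56 (95% interval -1.36 to 0.23). Tests that miss the threshold do not show that these genes were level from 8C on.

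Step by step along development, few of the 19 genes stood out. From CM to BL 286 of 7665 loci were called (limma, 3.73%), and none of the 19 was. At an unadjusted p under 0.05 there were NOS3 and JUP, the latter with 1.99 (95% interval 0.24 to 3.74) and an adjusted p of 0.204. Without the first CM embryo JUP was called, with an adjusted p of 0.0435 (limma; 0.0435 to 0.816 over 18 alternatives) and a log2 difference of 3.37, and DESeq2 called NOS3. For the steps from 8C to 16C, 16C to EM and EM to CM, limma called 0 of the 19 genes and 0 of all loci (0%), while 1397, 929 and 386 loci had an unadjusted p under 0.05. In these steps 1, 1 and 4 of the 19 genes did. They were LRFN4 from 8C to 16C, with -1.47 (95% interval -2.70 to -0.24), and JUP from 16C to EM, with -2.25 (95% interval -4.00 to -0.50). From EM to CM they were DHRS11, MSL1, LOC504861 and SLC30A2, all with higher values at CM. edgeR called none of the 19 in any step, and DESeq2 called none in these 3 steps.

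The stage with the highest mean was BL for 9 of the 19 genes, EM for 4, CM for 4, 8C for 2 (KDM5B and CAPRIN1) and 16C for none. Among the 837 named loci at or above 50 in all later samples the shares were 30.2% for 8C, 20.0% for 16C, 12.8% for EM, 16.0% for CM and 21.0% for BL. The lowest mean lay at 16C for 7 of the 19 genes and at EM for 6. Over the 10 later samples the median SD of log2 values was 0.626 for the 19 genes, beside 0.660 for the 837 loci, and the highest value was 3.71 times the lowest in the median, beside 4.05. It ranged from 2.25 times in MTHFD1L to 77.3 times in NOS3. JUP (11.95 times), SLC30A2 (7.10 times) and LRFN4 (6.84 times) followed NOS3. After MTHFD1L the steadiest by SD were SLC25A3, KDM5B, TFAP2C and STARD7.

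**Figure D3:**
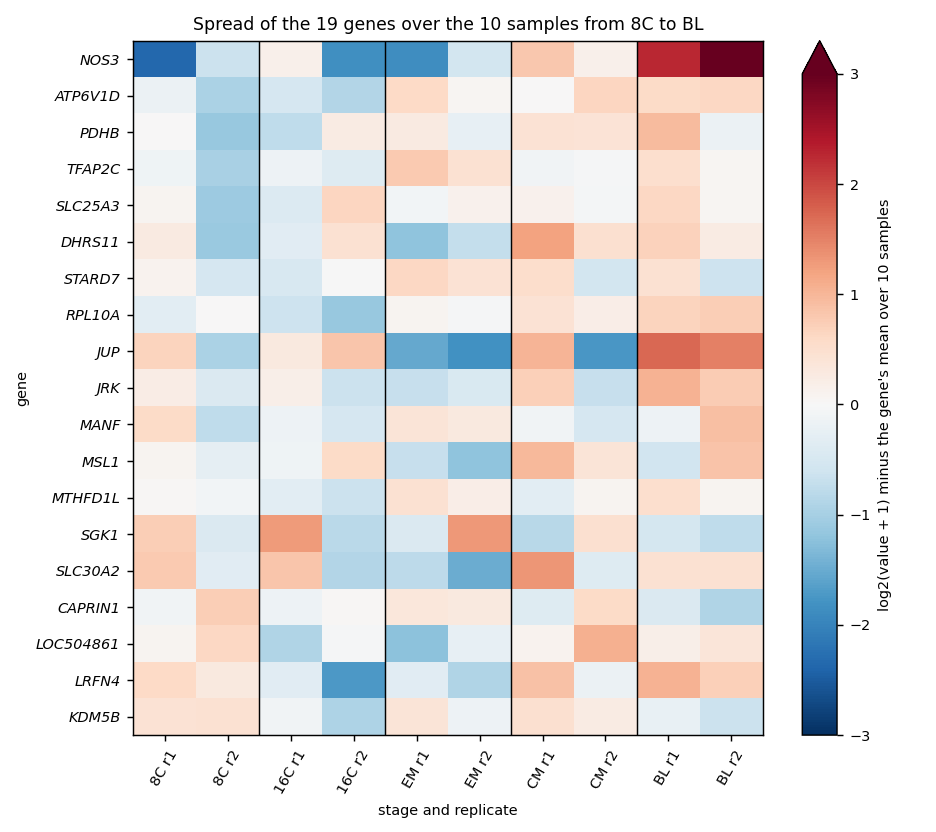
Deviation of each gene from its own mean over the 10 samples from 8C to BL, on the log2(value + 1) scale, in each sample (columns, r1 and r2 for the replicates), with genes ordered by the difference between later stages and 8C. NOS3 and JUP are highest in both BL embryos, and the second 8C column is below the first in 14 of 19 genes.

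The second 8C embryo was below the first in 14 of 19 genes, with a median log2 ratio of -0.66 beside -0.23 over the 837 loci, and 8 of the 19 genes differed by more than 2-fold. The 5 genes above the first embryo there were KDM5B, CAPRIN1, RPL10A, LOC504861 and NOS3. This was the embryo with 6484 of summed oocyte markers, whose part in the lower values was not tested. At the other stages the median ratio of the 19 genes was also below 0 (16C -0.33, EM -0.17, CM -0.24, BL -0.27). Over the 837 loci it was -0.34 at 16C, -0.17 at EM, 0.16 at CM and -0.08 at BL. At 16C and CM 6 of 19 genes were more than 2-fold apart, at BL 5 and at EM 3. Of the 837 loci, 30.7% were that far apart at 8C, 29.4% at 16C, 15.9% at EM, 21.7% at CM and 8.36% at BL, beside 42.1%, 31.6%, 15.8%, 31.6% and 26.3% of the 19 genes. Without the second 8C embryo the limits were met by 28 genes, which must hold all 19 since fewer samples can only add genes.

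The other genes of the families and complexes around the 19 genes, drawn together in the plot of relatives, did not all move in 1 direction. Of 17 families 14 had a tested relative, and in 10 of these at least 1 fell, a count that large families reach more easily. Of 150 tested relatives 23 reached the filter in later samples only, and 21 of these were called higher. Families were picked to fit the 19 genes, and a relative had to have enough reads to be tested. Shares are to be read beside 36.9% of loci higher and 29.9% lower in the later samples.

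**Figure D4:**
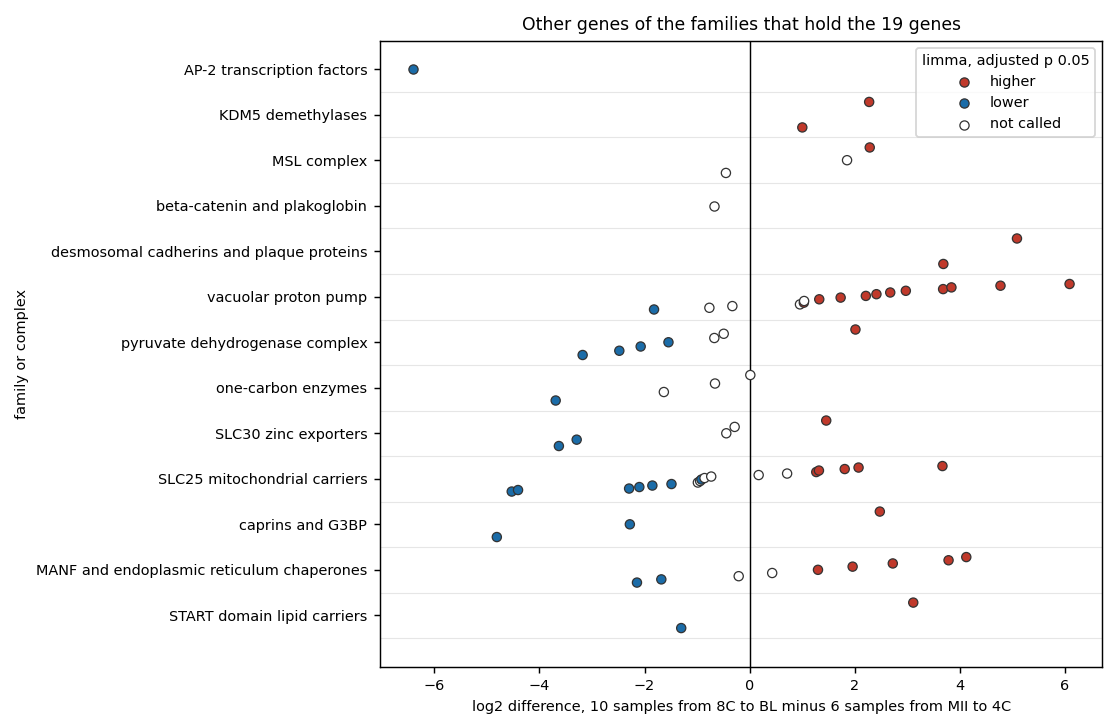
Log2 difference between the 10 later and the 6 early samples for the other tested genes of each family or complex, leaving out cytosolic ribosomal proteins, coloured by the limma call at an adjusted p of 0.05. Genes that reached the filter on low counts in early samples only, or in later samples only, are drawn too. The filter fixed their direction, so their colour is a description and not a test. ATP6V0D2, which lies highest, is such a gene, over the filter in 0 early and 9 later samples. TFAP2B lies lowest at -6.41, and families such as the zinc exporters and mitochondrial carriers have genes on both sides of 0.

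The 19 genes are 19 of 24820 named loci, so few would fall in any list, and nothing is read from lists that hold none. Of 27 functional lists 6 held at least 1, namely cytosolic ribosomal proteins (RPL10A), solute carriers (SLC25A3 and SLC30A2), trophectoderm factors and keratins (TFAP2C), cell junctions (JUP), glycolysis and glucose uptake (PDHB) and chromatin regulators and histones (KDM5B). In the trophectoderm list 7 of 13 other tested genes were higher and none lower, and among 93 other chromatin genes 40 were higher and 19 lower. Over all tested loci 36.9% were higher and 29.9% lower. For lists other than the cytosolic ribosomal proteins, genes that reached the filter in later samples only were not counted. Such a gene could only come out higher, so these counts are descriptions.

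Genes beside the 19 on the chromosome, as ordered in the RefSeq annotation of assembly ARS-UCD2.0, were compared in the same way. Of 38 flanking coding genes 33 were found in the table, none was among the 19 (which are 19 of 24820 named loci), and 2 were at 50 or more in all 10 later samples. Of 16 with enough reads for the test 8 were higher later, 4 were lower and 4 were not called, beside 36.9% higher and 29.9% lower over all tested loci. The other 17 had too few reads. TRIM63, 1 of the neighbours called higher, had 0 early and 154 later reads and could only come out higher. Neighbours that reached the filter in 1 period only were not counted, so these counts are descriptions.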

How the data were processed

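Single oocytes and embryos of 8 stages were profiled, with 2 samples a stage. Per the labels, RNA was amplified in 2 rounds and made into SOLiD libraries, and the submitters' processing notes name cutadapt, FastQC, TopHat, Cufflinks and HTSeq. The genome build, the strand setting and the rule for reads with several matches are not given in the sources used here. The authors deposited a signal per locus, a read count divided by a size factor. Divided by the lowest value of their sample, 100% of the values above 0 came out whole (within 0.1), and these whole numbers were used as reads. Depth was 607672 to 3379426 reads.

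The model was limma 3.58.1 (R 4.3.3) with a trend on log2(value + 1), fitted over all loci that passed edgeR's filterByExpr, 7665 for the 10 samples from 8C to BL and 6910 for later against early samples, with Benjamini-Hochberg adjustment at 0.05. Fold changes are on the log2(value + 1) scale, which understates the change of low genes. Scripts were tested on simulated data. Alternatives were other pseudocounts, no filter, scaling by total reads, edgeR 4.0.16 and DESeq2 1.42.0 on the recovered reads, a fit over all 16 samples, a replicate block, other limits for the selection, and each library left out in turn.

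The 19 genes and the gene lists were chosen with earlier results of these data known, and the families around the 19 genes once these were known. A few other genes of 1 family are not reported here. Comparisons with second loci of a name and with neighbours were added after seeing the data. Genes were named by this rule: the 10 with most later reads, any called in a contrast of later stages, those in a list, the 5 with the smallest and the 5 with the largest SD of log2 values, and the 3 loci nearest to each limit on either side. MANF and LOC504861 fall outside it and are given so that every gene is accounted for. All 19 names matched the RefSeq table of ARS-UCD2.0, which was used for names and neighbours only, and no sequences or coordinates are given. The labels give the samples of each stage the same replicate numbers, but deviations of same-numbered samples correlated between -0.11 and 0.16 (median -0.02) over 10 pairs of stages, so the numbers were not taken as pairs.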

Additional observations from a re-analysis of the deposited data

How the results depend on the processing

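None of the 19 genes was called for 8C against later stages, 8C to 16C, 16C to EM or EM to CM in the main model or under any of 18 alternatives. For the effect of stage, 1 gene was called in the main model, 0 with a pseudocount of 0.5, 0 with no filter on low counts and 2 with DESeq2 (NOS3 and JUP), and 0 to 2 with each library left out in turn. JUP was added without the first 8C embryo (adjusted p 0.0475, limma) and replaced NOS3 without the first CM embryo (adjusted p 0.0447, limma). NOS3 kept its call in 9 of 18 alternatives and lost it in 9, with an adjusted p of 2.95e-08 (DESeq2) to 0.282 over all of them (limma unless named). From CM to BL the count was 1 with DESeq2 (NOS3) and 0 to 1 with each library left out. The fit with the replicate number as a block gave 1 gene for the effect of stage (NOS3, adjusted p 0.0482, limma) and 0 for each other comparison. Over all loci the calls moved more: 0 to 1125 loci for the effect of stage (258 as reported; 0 without either BL embryo, 1125 without the first 8C embryo), 0 to 580 for later stages against 8C (56 as reported; 580 without the first 8C embryo) and 2 to 505 for CM to BL (286 as reported; 2 without the second BL embryo). DESeq2 called 162, 107 and 6 loci in the steps from 8C to CM where limma called 0, and without the first 8C embryo limma called 548 from 8C to 16C. With other limits the selection held 36 genes (10 and 50), 3 (5 and 100), 7 (2 and 50) or 56 (5 and 25), and 19 to 29 with each library left out, 29 without the first 2C embryo and 28 without the second 8C embryo. Scaled by total reads it held 19 genes, 14 of them shared with the selection reported, and by TMM 15, with 14 shared. NOS3 and STARD7 dropped out under both scalings, ATP6V1D, JUP and MANF by total reads, and CAPRIN1, LRFN4 and RPL10A by TMM. Scaling by total reads moved the median difference of later stages from 8C over all loci from 0.10 to 0.40 and that of the 19 genes from 0.13 to 0.46. From CM to BL, NOS3 differed by 2.60 on the log2 scale with an adjusted p of 0.114 (limma; 0.0138 to 0.582 over 18 alternatives). A value of 0 allows up to 3 reads, so a gene at or below 5 cannot be called silent.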

Other observations

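A group of 3 loci that the annotation did not name, with assembled names starting with CUFF, also met both limits and were left out by the selection. CUFF.87899.1 had 4 early and 10386 later reads, with normalised values of 2883 and 454 at 8C and 1647 and 1843 at BL. CUFF.22097.1 had 0 early and 2347 later reads, with 659 and 104 at 8C. CUFF.47690.1 had 4 early and 1732 later reads, and its values ran from 72.1 to 356 over the later samples. For the first of these names and for CUFF.22097.1 the first 8C embryo was above the second, as it was in 14 of the 19 named genes, while CUFF.47690.1 was equal in both within 1 unit.

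Leaving out single libraries showed which genes came next to the selection. Without the second 8C embryo 9 further genes met the limits, among them CLDN6, a claudin of tight junctions, TBX3, a T-box transcription factor, and ATP6V0D2, a subunit of the same proton pump as ATP6V1D. Without the first 2C embryo 10 more did, and RPL18, RPL34 and RPS19 among them are ribosomal proteins like RPL10A. Without the second 16C embryo FOLR1, a folate receptor, and LOC528262 were added with 3 others. All of these genes were named after their values were seen.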
